A study of Caenorhabditis elegans with 9 samples.

Results

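The comparison described here sets strain WLZ1, which expresses wild-type human LRRK2 in its neurons, against N2, the Bristol wild type, in Caenorhabditis elegans. Each strain had 3 libraries of polyA RNA from the whole organism. Every gene with at least 1 FPKM (a read count scaled by gene length and library size) in at least 3 of these 6 libraries was taken, which gave 14367 of the 28749 genes in the deposited table. The question is how gene expression in the whole worm differs when the wild-type human kinase is present in neurons. WLZ1 carries wlzIs1 [snb-1p::Hsa-LRRK2 + lin15(+)], an integrated transgene in which the promoter of the worm synaptobrevin gene snb-1 drives human LRRK2 and lin-15 serves as marker. It is 1 integrated line, so the place of insertion and the marker cannot be told apart from LRRK2 itself. No strain with the marker alone is part of the comparison. N2 carries no transgene. Worms of both strains were fed Escherichia coli OP50 at 20 °C. RNA was isolated with TRIzol, and paired-end sequencing used an Illumina NovaSeq or an MGISEQ-T7, with no label on which library used which. The labels used here give no stage, age or sex. No label says that the 3 libraries of a strain came from separate cultures, so a p-value here reflects the spread among these libraries alone, and that spread may be technical.

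LRRK2 is a large protein kinase and GTPase whose activating mutations cause a familial form of Parkinson's disease, and its best known substrates are Rab GTPases of the endosomal system. Its relative in the worm is lrk-1. A whole adult hermaphrodite contains a large germ line, and the X chromosome is largely silent in germ cells, whereas the genes of neurons, cuticle and gut are read in the soma. In RNA from whole animals, fewer cells of a type and less RNA per cell cannot be told apart.

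Read totals recovered from the FPKM values were 50132430 to 53336537 per WLZ1 library and 38128734 to 49302679 per N2 library. Pairs of libraries correlated across genes at 0.9925 to 0.9939 within WLZ1, 0.9880 to 0.9939 within N2 and 0.9139 to 0.9404 between the strains. The median SD between libraries of a strain was 0.108 on the log2 scale in both. Genes were tested with limma on log2(FPKM + 1) and called at an adjusted p under 0.05. The calls covered 69.3% of the genes tested, with 3936 (27.4%) higher and 6015 (41.9%) lower in WLZ1. The 6 libraries did not overlap between the strains in 10358 genes (72.1%). With calls this common, a single call says little, and each group of genes below is read against these shares. Most changes were modest, as genes from the 25th to the 75th percentile lay between -0.71 and 0.20 log2 units. A change of at least 1 log2 unit was met by 590 genes that rose (4.11%) and 2227 that fell (15.5%), one of 2 units by 231 (1.61%) and 329 (2.29%), and one of 3 units by 95 (0.661%) and 47 (0.327%). Of the genes tested, 537 passed the filter only through WLZ1 and 1022 only through N2, and these had to differ; the other 12808 held 3404 rises and 5008 falls. Among the genes named below, T10H9.10, ins-31, spe-11, F18E9.7, C14F11.7 and T10B10.9 are of the first kind and lgc-55, cat-1, ift-20 and twk-11 of the second, and others are marked where they appear. The median gene stood at -0.12 log2 units. That shift depends on scaling, being 0.06 after median-of-ratios scaling and 0.07 after quantile normalization, and rises then made up 54.1% and 56.4% of calls, against 39.6% on the deposited scale. The median of a gene group is therefore read against -0.12, and its median under another scaling is given where it differs by over 1.5 times. No source used here says whether reads were counted by strand, so a gene that shares exon sequence with one on the opposite strand (opposite-strand overlap below) has an uncertain value. Sharing exon sequence on the same strand also makes a value uncertain, as for gpd-2 with mai-1, tps-2 with arl-3 and pars-2 with T27F6.6.

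Genes of the X chromosome were mostly lower in WLZ1. Of 2060 X genes tested, 1412 (68.5%) fell and 136 (6.6%) rose, with a median of -0.55 log2 units, which is -0.43 relative to all genes. Of these, 218 had been tested only through N2 and 9 only through WLZ1, and the 1833 without them held 1196 falls (65.2%) and 128 rises (6.98%) with a median of -0.47. The 5 autosomes together had 4599 falls (37.4%) and 3799 rises (30.9%) among 12291 genes. Their median was -0.03, or 0.15 after median-of-ratios scaling and 0.10 after quantile normalization. Without those tested through 1 strain only they had 3808 falls (34.7%) and 3275 rises (29.9%) among 10959. The autosomes were not alike either. Chromosome I had more rises than falls, 897 against 696, as did chromosome III with 759 against 710. Chromosome V leaned the other way on the deposited scale, with 621 rises and 1325 falls and a median of -0.29. That median was -0.13 after median-of-ratios scaling. After quantile normalization it was 0.03, and 856 genes of V rose and 847 fell. Chromosomes II and IV lay between, with medians of -0.02 and -0.06 that turned to 0.15 and 0.13 after median-of-ratios scaling. The 14 genes of mitochondrial DNA gave 1 rise and 3 falls.

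The share of the summed FPKM that came from X genes was 7.56%, 7.78% and 7.15% in WLZ1 libraries 1 to 3, the order used for every gene below, and 9.04%, 9.40% and 9.40% in N2 libraries 1 to 3. Every WLZ1 library was below every N2 library. The means were 7.50 ± 0.317% in WLZ1 and 9.28 ± 0.209% in N2 (SD, n = 3 each), a difference of -1.78 percentage points with an exact two-sided permutation p of 0.1, the smallest that 3 against 3 libraries can give.

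**Figure D1:**
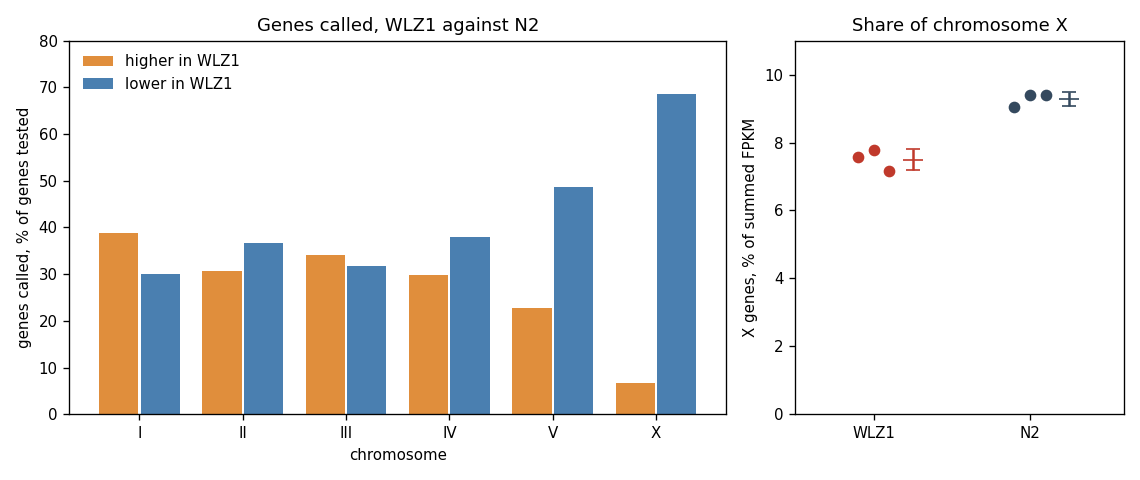
Left, the percentage of tested genes called higher (orange) or lower (blue) in WLZ1 on each nuclear chromosome. Right, the percentage of each library's summed FPKM that came from X genes, with the mean and SD beside the 3 libraries of each strain; the WLZ1 libraries lie between 7.15% and 7.78% and the N2 libraries between 9.04% and 9.40%.

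Falls outnumbered rises on X under every alternative setting, and the size varied. After median-of-ratios scaling 258 X genes rose and 1143 fell, with a median of -0.39, and after quantile normalization 404 rose and 951 fell, with a median of -0.22. Leaving out each library in turn gave at most 137 rises and at least 1093 falls among the 1827 to 2044 X genes then tested. Falls also outnumbered rises among both abundant and scarce X genes. Of 314 X genes that averaged 30 FPKM or more, 202 (64.3%) fell and 37 (11.8%) rose, and of 1746 below that level 1210 (69.3%) fell and 99 (5.67%) rose. On the autosomes the balance of calls turned round between the 2 levels. At 30 FPKM or more, 2362 of 4532 (52.1%) rose and 628 (13.9%) fell, whereas below it 1437 of 7759 rose and 3971 (51.2%) fell. The median of these scarcer autosomal genes was -0.37, or -0.21 after median-of-ratios scaling, and turned to 0.07 after quantile normalization. X and autosomes lay closest at 5 to 10 FPKM, where 70.5% and 62.6% fell, with medians of -0.62 and -0.56. After quantile normalization the medians at that level were -0.07 for X and 0.002 for autosomes. X genes outside every gene list used below gave 134 rises and 1335 falls among 1965, and those in a list gave 2 rises and 77 falls among 95.

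**Figure D2:**
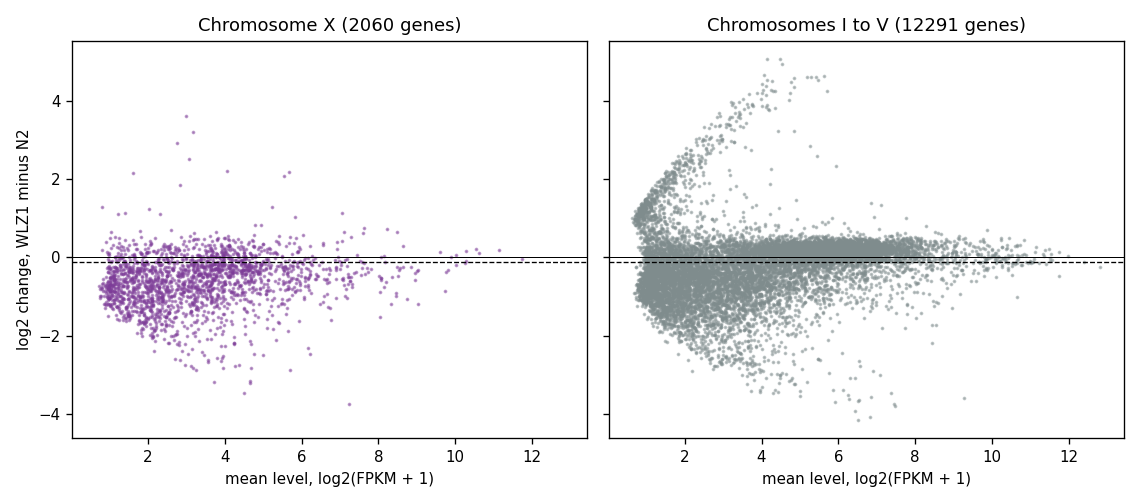
Log2 change (WLZ1 minus N2) against mean level, log2(FPKM + 1), with 1 point per tested gene, for chromosome X on the left and chromosomes I to V on the right. The dashed line marks the median of all genes at -0.12; X points lie mostly below it at all levels, and autosomal points lie above it at high levels and below it at low levels.

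Large changes split the same way. A change of at least 1 log2 unit was met by 14 X genes that rose and 507 that fell among 2060 tested. Chromosome I had 126 and 265 among 2314, and chromosome IV 173 and 374 among 2492. Chromosome V was the autosome nearest to X, with 85 and 461 among 2726. Of all genes tested 4.11% rose and 15.5% fell by that much. These counts include genes tested only through 1 strain, which had to differ, and were not repeated without them. On X 218 were tested only through N2 and 9 only through WLZ1, and on V 270 and 75. At 2 log2 units, 8 X genes rose and 61 fell, a size met by 1.61% and 2.29% of all genes tested. The 8 were looked up after their values were seen. Both lin-15A and lin-15B are among them, the pair that the transgene carries as its marker. lin-15B, a chromatin regulator, had 87.9, 76.9 and 83.6 FPKM in WLZ1 and 16.8, 17.8 and 17.9 FPKM in N2 (chromosome X, 15726129 to 15731861, in build WBcel235 as all positions here), a 4.73-fold rise (log2 change 2.18 ± 0.065 SE, adjusted p = 1.7e-07). lin-15A beside it, which acts with it against ectopic vulval fates, had 76.4, 70.3 and 76.8 FPKM in WLZ1 and 16.6, 17.6 and 16.1 FPKM in N2 (4.45-fold, adjusted p = 7.1e-08). These 2 genes share exon sequence on the same strand, so their values are not fully separate measures. The transgene copies and the native genes cannot be told apart in these counts. The other 6 bear sequence names only. F18E9.7 (chromosome X, 8595152 to 8597747) had 14.6, 15.99 and 10.2 FPKM in WLZ1 and 0.116, 0.250 and 0.119 FPKM in N2 (log2 change 3.63 ± 0.17 SE, adjusted p = 9.8e-07). C14F11.7 (chromosome X, 6208160 to 6208563) had 17.8, 14.6 and 13.6 FPKM in WLZ1 and 0.663, 0.896 and 0.684 FPKM in N2 (log2 change 3.22 ± 0.16 SE, adjusted p = 1.1e-06). Both were near the bottom of the measured range in all N2 libraries and above 10 FPKM in all WLZ1 libraries. H11L12.1 (chromosome X, 17710285 to 17711698) had 25.2, 24.4 and 29.4 FPKM in WLZ1 and 6.21, 4.49 and 4.06 FPKM in N2. C06E2.9, F56C3.8 and T10B10.9 made up the remainder, with log2 changes of 2.94, 2.51 and 2.16.

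The X pattern could be followed within pairs of genes for the same kind of protein, 1 on X and 1 on an autosome. These pairs were picked after their values were seen and show single cases, not a test. The ATP synthase peripheral stalk subunit b has an autosomal and an X gene. asb-1, the autosomal one (chromosome III, 4594543 to 4595821), had 223, 234 and 222 FPKM in WLZ1 and 179, 160.3 and 157 FPKM in N2 (log2 change 0.45 ± 0.055 SE, adjusted p = 9.6e-05). asb-2 (chromosome X, 4469766 to 4471476) had 108, 103.1 and 109.8 FPKM in WLZ1 and 161, 168 and 155 FPKM in N2 (log2 change -0.59 ± 0.063 SE, adjusted p = 4.3e-05). The libraries of the strains did not overlap for either gene, and the directions were opposite under every scaling.

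Glyceraldehyde-3-phosphate dehydrogenase, a glycolytic enzyme, has 4 genes. gpd-1 on chromosome II had 240.0, 236 and 268 FPKM in WLZ1 and 185, 180.6 and 178 FPKM in N2 (log2 change 0.45 ± 0.063 SE, adjusted p = 2.0e-04). gpd-4, also on II, had 101.2, 90.8 and 114.5 FPKM in WLZ1 and 77.8, 71.3 and 65.1 FPKM in N2 (log2 change 0.51 ± 0.09 SE, adjusted p = 8.1e-04). Both were higher in every WLZ1 library than in any N2 library. On X, gpd-2 had 107, 102.7 and 109 FPKM in WLZ1 and 153, 158 and 161 FPKM in N2 (log2 change -0.56 ± 0.046 SE, adjusted p = 9.8e-06). Its neighbour gpd-3 had 123, 126 and 116 FPKM in WLZ1 and 175, 193 and 187 FPKM in N2 (log2 change -0.60 ± 0.052 SE, adjusted p = 1.4e-05). Copies this alike can exchange reads, so the split between the members of a pair is less certain than their sum.

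Other pairs ran in the same sense with smaller or uncalled rises. his-71 on X, a histone H3.3 gene, had 30.9, 24.8 and 32.1 FPKM in WLZ1 and 89.0, 98.5 and 88.3 FPKM in N2 (log2 change -1.63 ± 0.097 SE, adjusted p = 2.5e-06). his-74 on V, also H3.3, had 320.2, 296 and 353 FPKM in WLZ1 and 237, 254 and 225 FPKM in N2 (log2 change 0.43 ± 0.071 SE, adjusted p = 5.2e-04). For both genes the strains did not overlap. The third H3.3 gene, his-72 on III, was not called at -0.27 (adjusted p = 0.055), although leaving out WLZ1 library 3 brought a call at -0.38. rpl-11.2 on X, for ribosomal protein L11, had 242, 206 and 254 FPKM in WLZ1 and 457, 505 and 436 FPKM in N2 (log2 change -0.99 ± 0.1 SE, adjusted p = 3.0e-05). Its autosomal partner rpl-11.1 changed by 0.27 (adjusted p = 0.047), a call with overlapping strains that was lost without WLZ1 library 1 or 3 or N2 library 2 or 3 (0.17 to 0.31) and with a replicate block. The translation elongation factor gene eef-1A.2 on X fell (-0.57 ± 0.056 SE, adjusted p = 2.4e-05), and eef-1A.1 on III, with opposite-strand overlap, was not called (0.15, adjusted p = 0.11). For the cap-binding factor 4E, ife-1 on III rose (0.36 ± 0.043 SE, adjusted p = 8.9e-05) and ife-4 on X fell (-0.51 ± 0.11 SE, adjusted p = 0.0029), the second call being lost after quantile normalization at -0.20.

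There were exceptions to this split. aldo-1, an aldolase gene on III, had 41.5, 39.5 and 40.5 FPKM in WLZ1 and 63.2, 73.3 and 71.6 FPKM in N2 (log2 change -0.76 ± 0.063 SE, adjusted p = 1.1e-05), and aldo-2, also on III and with opposite-strand overlap, was not called (0.025, adjusted p = 0.67). suca-1 on X, for a subunit of succinyl-CoA ligase, had 75.8, 80.8 and 75.1 FPKM in WLZ1 and 57.9, 48.0 and 49.7 FPKM in N2 (log2 change 0.57 ± 0.068 SE, adjusted p = 8.3e-05). In the short-chain dehydrogenase family the largest changes were 2 rises on X, dhs-26 with 1.25 and dhs-25 with 1.14; dhs-26 shares exon sequence with a gene on the opposite strand.

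**Figure D3:**
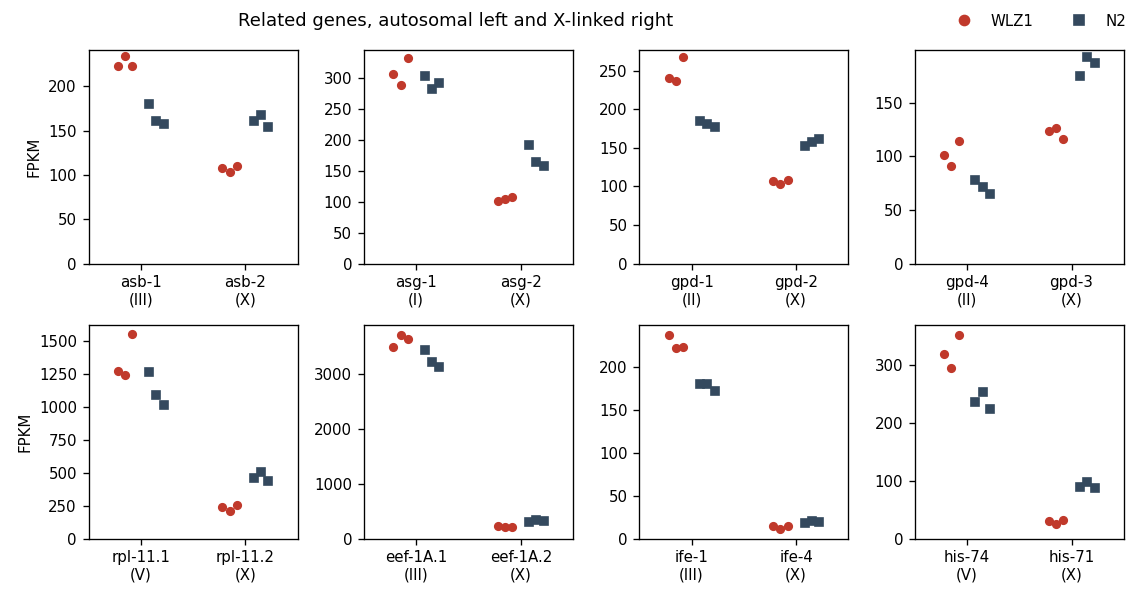
Levels in FPKM, on axes that start at 0, in the 3 WLZ1 (red circles) and 3 N2 libraries (dark squares) for 8 pairs of related genes, the autosomal gene at the left of each panel and the X gene at the right. asb-2, gpd-2, gpd-3 and his-71 on X lie lower in WLZ1 than in N2, and asb-1, gpd-1, gpd-4 and his-74 on autosomes lie higher.

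The largest rises belonged to genes with under 10 FPKM in every N2 library. Among the 12 largest, chosen by a rule on size and separation of the strains, were T10H9.10, at 0 in every N2 library, the insulin-like gene ins-31 (4.96) and msp-81 (4.64), a major sperm protein gene whose near-identical copies can share reads. Also among the 12 were msp-57 (4.63), msp-53 (4.62), msp-55 (4.60), msp-59 (4.55) and nspd-2 (4.66). F26D10.13 on IV (chromosome IV, 17264242 to 17264814) had 38.3, 30.9 and 28.6 FPKM in WLZ1 and 0.209, 1.02 and 0.162 FPKM in N2 (log2 change 4.56 ± 0.26 SE, adjusted p = 2.0e-06). K03D3.5, also on IV (chromosome IV, 16320087 to 16320510), had 41.9, 28.3 and 37.4 FPKM in WLZ1 and 0, 1.02 and 0.968 FPKM in N2 (log2 change 4.52 ± 0.3 SE, adjusted p = 4.0e-06). Neither has a name beyond its sequence. Across the 27 msp genes tested the summed level was 1138, 907 and 989 FPKM in WLZ1 and 74.99, 27.5 and 11.3 FPKM in N2. In proportion to their level, the N2 libraries differed among themselves by more than the WLZ1 libraries did. N2 library 1 was the highest of N2 for all 27 genes. All 27 were called higher in WLZ1, and 3 of them were tested only through WLZ1. Of the 95 rises of at least 3 log2 units, 26 were msp genes.

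The largest falls included genes of the cuticle, the collagen-rich coat that the epidermis renews at each moult. cut-2, a cuticlin gene (chromosome V, 13414949 to 13416064), had 18.97, 18.98 and 31.8 FPKM in WLZ1 and 254, 370.3 and 339.6 FPKM in N2 (log2 change -3.76 ± 0.2 SE, adjusted p = 1.4e-06). ram-2, named for a male ray defect in mutants (chromosome II, 11015589 to 11016881), had 10.2, 9.74 and 17.5 FPKM in WLZ1 and 138, 206 and 158 FPKM in N2 (log2 change -3.67 ± 0.27 SE, adjusted p = 6.6e-06). nlp-39, for a neuropeptide-like protein (chromosome I, 12461656 to 12461895), had 20.1, 16.9 and 14.01 FPKM in WLZ1 and 192, 221 and 219 FPKM in N2 (log2 change -3.57 ± 0.18 SE, adjusted p = 1.2e-06). The strains did not overlap for any of them. cut-3 (-3.71), col-165 (-3.75) and col-74 (-3.66) fell as far, although cut-3 and col-74 share exon sequence with genes on the opposite strand. The other falls in this set, C02E7.7, C02E7.6, C54C8.12, R12E2.15, ZK180.5 and F41F3.3, carry sequence names, and their changes ran from -4.17 to -3.60.

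**Figure D4:**
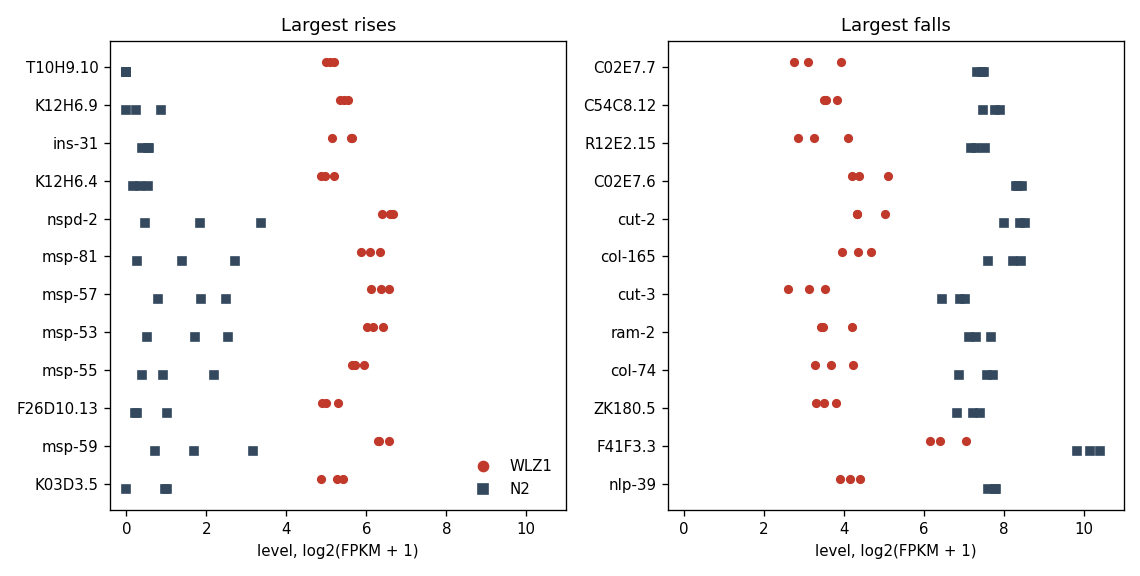
Levels as log2(FPKM + 1) in each WLZ1 (red circles) and N2 library (dark squares) for the 12 largest rises on the left and the 12 largest falls on the right. The strains form separate groups for all 24 genes; in the rises no N2 library reaches 10 FPKM, and in the falls every WLZ1 library keeps at least 5 FPKM.

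Some of the largest falls were neighbours, which was seen after their values. R12E2.15 (chromosome I, 4148870 to 4149429) had 8.499, 6.25 and 16.2 FPKM in WLZ1 and 145, 182 and 158 FPKM in N2 (log2 change -3.94 ± 0.32 SE, adjusted p = 9.2e-06). The next gene, R12E2.14, had 4.16, 2.74 and 5.17 FPKM in WLZ1 and 45.2, 67.3 and 60.3 FPKM in N2 (log2 change -3.56 ± 0.26 SE, adjusted p = 6.2e-06). R12E2.7, a few kilobases on, had 1.22, 1.40 and 3.53 FPKM in WLZ1 and 25.7, 32.3 and 26.1 FPKM in N2 (log2 change -3.32 ± 0.29 SE, adjusted p = 1.5e-05). All 3 were lower in every WLZ1 library than in any N2 library. On V, C02E7.7 (chromosome V, 4918136 to 4918574) had 7.55, 5.70 and 14.2 FPKM in WLZ1 and 180.9, 173 and 159.6 FPKM in N2 (log2 change -4.17 ± 0.26 SE, adjusted p = 3.2e-06). The adjacent C02E7.6 had 19.8, 17.5 and 33.6 FPKM in WLZ1 and 347, 329 and 313 FPKM in N2 (log2 change -3.80 ± 0.21 SE, adjusted p = 1.6e-06). H23N18.5, close by, fell by 2.37.

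Some genes were low in 1 strain and well above that in the other, by a rule also set after the values were seen: at least 5 FPKM in each library of 1 strain and at most 1 FPKM in each of the other. In WLZ1 85 genes met it and in N2 20 did. Of the 85, among 14367 genes tested, 14 lay on I, 18 on II, 13 on III, 23 on IV, 15 on V and 2 on X. Of them 40 lay within 100 kb of another, and how many would do so by position alone was not worked out. A stretch of chromosome II from 2.6 to 3.7 Mb, picked with these positions in view, held 13 of them among 186 tested genes. Of the 186, 67 rose and 46 fell, while of all 2528 genes tested on II 30.7% rose and 36.6% fell. In that stretch nspf-3 had 12.7, 12.09 and 13.4 FPKM in WLZ1 and 0, 0.161 and 0 FPKM in N2. C16C8.9 had 19.7, 16.7 and 14.6 FPKM in WLZ1 and 0.202, 0 and 0.234 FPKM in N2. Y49F6B.6 had 17.6, 15.7 and 15.9 FPKM in WLZ1 and 0.184, 0.149 and 0 FPKM in N2. The N2 values of these genes are at or near 0, so no fold is given for them. Of the 85, 47 carry sequence names only, 7 are clec genes (C-type lectins), 4 are fipr genes and 3 are msp genes. The msp genes are not the only sperm genes in the set, which also holds the sperm markers gsp-3 and gsp-4 and the sperm factor gene spe-11. Of the 85, 45 were above 1 FPKM in at least 1 library of WLZ3, the strain with the G2019S form. The 4 fipr genes do not stand for their family, since of 22 fipr genes tested 17 fell and 5 rose (median -1.23). Of the 22, 4 were tested only through WLZ1 and 6 only through N2. The 20 genes that met the rule in N2 were lower in WLZ1 but had a value above 0 in every WLZ1 library. They lay mostly on II (7) and V (6), with 3 on X. Among them lips-9, a lipase-like gene (chromosome II, 12933854 to 12935362), had 0.417, 0.752 and 0.872 FPKM in WLZ1 and 7.36, 7.46 and 7.24 FPKM in N2. Y53F4B.27 had 0.524, 0.568 and 0.544 FPKM in WLZ1 and 5.93, 8.14 and 6.77 FPKM in N2.

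gly-20 had the smallest adjusted p of the named rises after T10H9.10. It encodes N-acetylglucosaminyltransferase II, which builds complex N-glycans in the Golgi. gly-20 (chromosome V, 11282572 to 11286039) had 100.9, 97.3 and 106 FPKM in WLZ1 and 19.4, 19.8 and 18.3 FPKM in N2, a 5.29-fold rise (log2 change 2.34 ± 0.045 SE, adjusted p = 7.9e-09). Its value in every WLZ1 library was far above every N2 library. In the same prefix family gly-8 (-1.34) fell, with exon sequence shared on the opposite strand.

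Gene lists of tissues and pathways were then counted, each against the background of 27.4% higher and 41.9% lower. That background varied with level. Of autosomal genes averaging 2 to 5 FPKM 58.5% fell, of those at 5 to 10 FPKM 62.6% fell, and of those at 30 to 100 FPKM 13.6% fell and 54.1% rose. Lists of the nervous system lay below the median gene. All 23 tested ion channel genes of excitable cells fell, with a median of -1.11 (-0.98 relative to all genes, and -0.68 after quantile normalization). Of these, 6 passed the filter only through N2 and had to be lower, which leaves 17 of 17. slo-1, the BK potassium channel, had 1.55, 1.39 and 2.16 FPKM in WLZ1 and 7.44, 8.31 and 7.86 FPKM in N2 (log2 change -1.73 ± 0.13 SE, adjusted p = 7.2e-06). unc-2, a calcium channel of the presynaptic terminal, had 1.72, 1.33 and 1.86 FPKM in WLZ1 and 5.93, 8.16 and 7.55 FPKM in N2 (log2 change -1.64 ± 0.13 SE, adjusted p = 8.6e-06). unc-36, an accessory subunit of such channels, fell too (-1.58), with opposite-strand overlap. Levels of these genes are a few FPKM in whole worms, and the strains did not overlap for any of the 3.

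Transmitter genes followed. All 9 GABA genes tested fell (median -1.25), all 14 glutamate genes (median -0.97) and 19 of 20 acetylcholine genes (median -1.17). Members below 1 FPKM in every WLZ1 library, which were tested only through N2 and had to be lower, made up 2 of the 9, 6 of the 14 and 5 of the 20. Without them 7 of 7 GABA genes (median -1.25), 8 of 8 glutamate genes (-0.79) and 14 of 15 acetylcholine genes (-1.18) fell. After quantile normalization the medians of all tested members were -0.78, -0.60 and -0.68. unc-50, which acts in receptor trafficking in many cells, was the acetylcholine gene not called (-0.035), and it turned to 0.16 with a call after median-of-ratios scaling. ric-3, a chaperone of nicotinic receptors, had 5.55, 3.98 and 5.47 FPKM in WLZ1 and 18.46, 22.6 and 22.9 FPKM in N2 (log2 change -1.90 ± 0.12 SE, adjusted p = 3.6e-06). ace-3, for an acetylcholinesterase, had 2.19, 1.75 and 2.31 FPKM in WLZ1 and 7.56, 12.8 and 11.4 FPKM in N2 (log2 change -1.89 ± 0.17 SE, adjusted p = 1.7e-05). unc-3, the transcription factor of cholinergic motor neurons, had 1.72, 1.07 and 1.89 FPKM in WLZ1 and 5.36, 7.17 and 6.78 FPKM in N2 (log2 change -1.55 ± 0.15 SE, adjusted p = 2.7e-05). In the GABA list, snf-11, the plasma membrane GABA transporter, had 2.005, 1.89 and 2.43 FPKM in WLZ1 and 6.46, 11.15 and 10.1 FPKM in N2. unc-47, the vesicular transporter, had 0.764, 0.292 and 0.718 FPKM in WLZ1 and 2.47, 3.16 and 3.27 FPKM in N2. gbb-1, a GABA-B receptor gene on X, changed by -1.46 ± 0.13 SE, adjusted p = 1.3e-05. Among glutamate genes, sol-1, an accessory protein of the receptor glr-1, changed by -1.47 and glr-1 by -1.32. eat-4, the vesicular glutamate transporter, changed by -1.36 and overlaps a gene on the opposite strand. These 3 and unc-47 are among the genes tested only through N2. For autosomal members alone the medians were -1.25 for acetylcholine, -1.21 for GABA and -0.98 for glutamate genes.

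Monoamine genes were mixed. Of 22 tested, 14 fell and 2 rose, with a median of -0.58 that was -0.15 after quantile normalization. It was 0.09 when genes with a mean under 5 FPKM were left out. Without N2 library 1, 2 or 3 it was -0.24, -0.23 and -0.22. Members tested only through N2 then failed the filter, so these medians cover fewer genes. The filter was passed only through N2 by 12 of the 22, and of the other 10 the calls were 3 falls and 2 rises (median -0.25). lgc-55, a tyramine-gated channel, had 0.741, 0.526 and 0.710 FPKM in WLZ1 and 2.13, 3.05 and 3.24 FPKM in N2 (log2 change -1.19 ± 0.15 SE, adjusted p = 1.2e-04). ser-4, a serotonin receptor, changed by -0.84 and cat-1, the vesicular monoamine transporter on X, by -0.83. The 2 rises were the enzymes of tyramine and octopamine synthesis, both with exons shared on the opposite strand. tdc-1, tyrosine decarboxylase, had 92.9, 92.8 and 103.2 FPKM in WLZ1 and 76.3, 74.8 and 73.7 FPKM in N2 (log2 change 0.36 ± 0.048 SE, adjusted p = 1.8e-04). tbh-1, tyramine beta-hydroxylase on X, had 130.3, 126 and 129.3 FPKM in WLZ1 and 107, 111 and 112 FPKM in N2 (log2 change 0.22 ± 0.037 SE, adjusted p = 5.5e-04).

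Genes of sensory cilia fell almost throughout. Of 38 genes of cilia and intraflagellar transport, 37 fell and 1 rose, with a median of -1.04. Of these, 22 were tested only through N2 and had to be lower; the other 16 gave 15 falls and 1 rise (median -0.91). nphp-1, nephrocystin of the ciliary transition zone, had 1.36, 0.715 and 0.974 FPKM in WLZ1 and 3.61, 5.24 and 5.26 FPKM in N2 (log2 change -1.50 ± 0.16 SE, adjusted p = 3.9e-05). dyf-7, which anchors dendrite tips, had 4.36, 2.66 and 4.09 FPKM in WLZ1 and 10.1, 12.4 and 13.5 FPKM in N2 (log2 change -1.48 ± 0.16 SE, adjusted p = 4.7e-05). ift-20, a transport particle subunit, changed by -1.56, with opposite-strand overlap. The 1 rise was dyf-3 on IV (chromosome IV, 3396581 to 3399231), the worm relative of CLUAP1 and needed for the same cilia. dyf-3 had 15.5, 13.9 and 15.5 FPKM in WLZ1 and 5.31, 6.58 and 6.54 FPKM in N2 (log2 change 1.16 ± 0.091 SE, adjusted p = 8.3e-06), higher in every WLZ1 library and under every alternative setting. In sensory signalling 12 of 14 genes fell (median -0.65, or -0.28 after quantile normalization), and 5 of these were tested only through N2. The G protein subunit odr-3 (-1.55) and the Otx factor ttx-1 (-1.31) fell and were not among those 5. In axon guidance and adhesion 30 of 35 fell and none rose (median -0.88, or -0.52 after quantile normalization), led by zig-8 (-1.78), zig-1 (-1.67) and the Flamingo cadherin fmi-1 (-1.64); both zig genes overlap on the opposite strand. unc-40, smp-1, sax-7, zig-3 and efn-3 were not called.

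**Figure D5:**
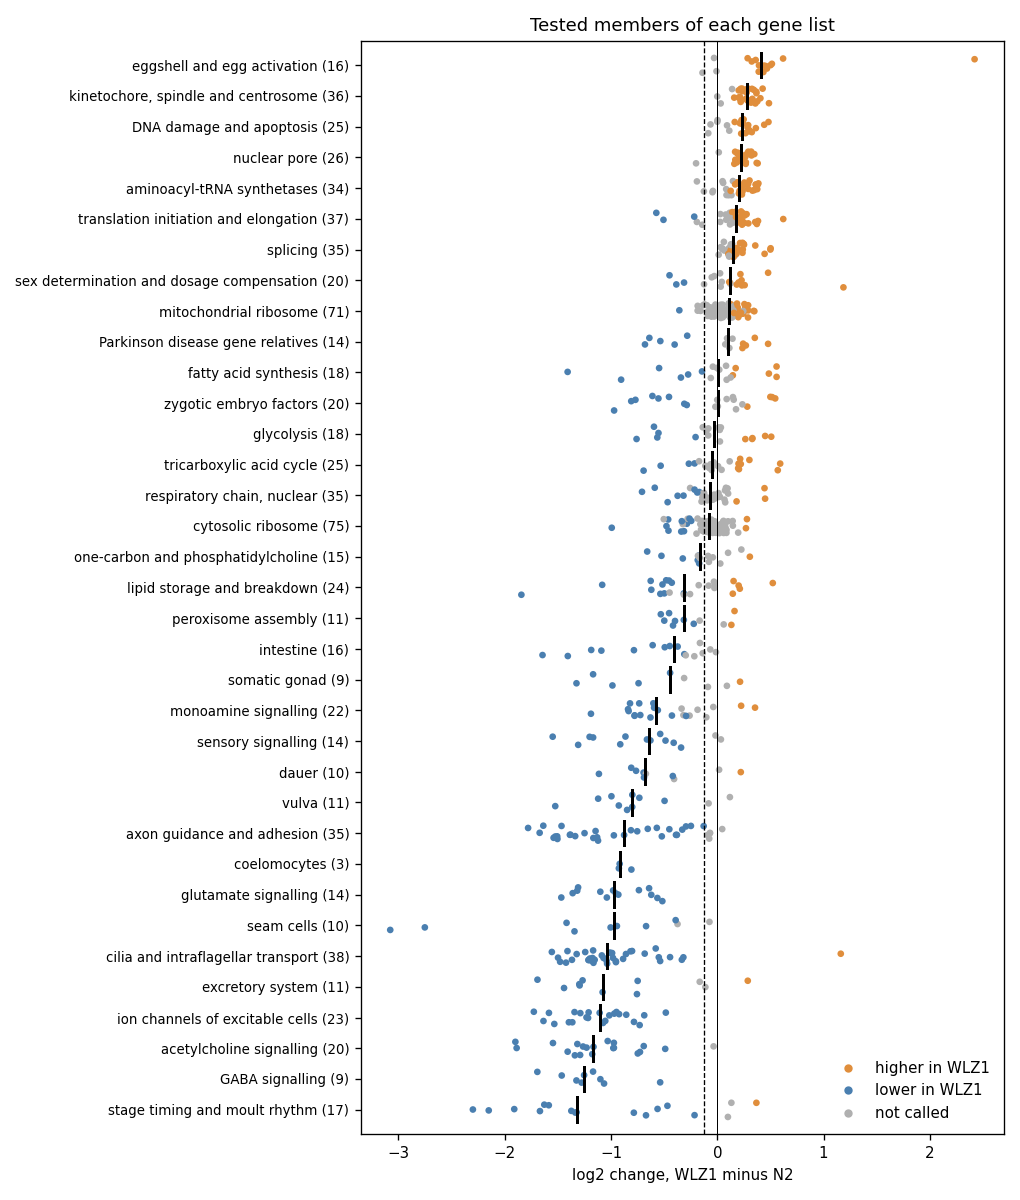
Log2 change (WLZ1 minus N2) of every tested member of each gene list with at least 3 tested members, ordered by the list median (black bar), with the number tested in brackets. Orange points were called higher, blue points lower and grey points were not called; lists of the nervous system, the moult and the epidermis lie to the left of the dashed median of all genes at -0.12, and those of eggshell, chromosome segregation, nuclear pore and tRNA charging to its right.

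Marker sums of other cell types moved with these lists. The 7 pan-neuronal markers summed to 62.7 to 70.98 FPKM in WLZ1 and 153 to 195 FPKM in N2. Outside that set, snb-1 had 192, 169 and 188 FPKM in WLZ1 and 188, 208 and 191 FPKM in N2. This synaptobrevin gene was not called (log2 change -0.10, adjusted p = 0.17). The 4 body muscle markers summed to 143 to 163 FPKM in WLZ1 and 307 to 363 FPKM in N2. The other way, the 5 oocyte markers summed to 2448 to 2748 FPKM in WLZ1 and 1874 to 2058 FPKM in N2, and the 5 sperm markers to 23.5 to 28.6 FPKM in WLZ1 and 10.96 to 13.1 FPKM in N2. No marker of these sets was at 0 in every library. Their part in the changes of the lists and of the X chromosome was not tested.

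Genes that time larval stages and the moult fell as a group. Of 17 tested, 14 fell and 1 rose, with a median of -1.32 (-1.2 relative to all genes, and -0.85 after quantile normalization). grh-1, the Grainyhead factor of the epidermis (chromosome I, 1258201 to 1268155), had 4.55, 2.95 and 4.33 FPKM in WLZ1 and 21.6, 24.3 and 23.4 FPKM in N2 (log2 change -2.299 ± 0.12 SE, adjusted p = 1.6e-06). lin-14 on X, which sets early larval fates, had 7.92, 7.73 and 8.94 FPKM in WLZ1 and 31.6, 45.99 and 43.2 FPKM in N2 (log2 change -2.15 ± 0.14 SE, adjusted p = 3.3e-06). Every WLZ1 library was below every N2 library for both, by several fold. bed-3, a zinc-finger factor of moulting, changed by -1.91, with opposite-strand overlap. The 1 rise was lin-41, a translational repressor that also acts in oocytes, with 111, 117 and 117 FPKM in WLZ1 and 96.8, 85.4 and 84.2 FPKM in N2 (log2 change 0.37 ± 0.056 SE, adjusted p = 3.4e-04). nhr-23 and mab-10 were not called.

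Epidermal and tubular tissues followed. Of 10 seam cell genes 8 fell (median -0.97, or -0.47 after quantile normalization), led by the hedgehog-related grd-10, which had 3.50, 3.25 and 4.42 FPKM in WLZ1 and 32.4, 46.4 and 38.2 FPKM in N2 (log2 change -3.08 ± 0.27 SE, adjusted p = 1.5e-05), and grd-13, which had 2.36, 2.12 and 3.32 FPKM in WLZ1 and 21.2, 29.2 and 19.7 FPKM in N2 (log2 change -2.75 ± 0.21 SE, adjusted p = 7.3e-06). The N2 libraries themselves spread by more than 10 FPKM for grd-10. bro-1, partner of the Runx factor of seam cells, changed by -1.42. Of 11 excretory system genes 8 fell and 1 rose (median -1.08, or -0.55 after quantile normalization). lpr-1, a lipocalin that keeps the excretory duct open, had 0.876, 0.406 and 1.17 FPKM in WLZ1 and 4.35, 5.34 and 4.69 FPKM in N2 (log2 change -1.69 ± 0.17 SE, adjusted p = 3.3e-05). exc-7 (-1.44) and vha-5 (-1.30), both with opposite-strand overlap, fell as well, and the chloride channel gene clh-3 rose (0.29 ± 0.074 SE, adjusted p = 0.0066). Of the 3 coelomocyte genes, cup-4 fell by 0.81, while unc-122 and lgc-26 passed the filter only through N2 and had to be lower (-0.93 and -0.92). Summed seam markers were 62.9 to 73.4 FPKM in WLZ1 and 85.1 to 92.2 FPKM in N2. Most of these seam sums came from egl-18, which was not called, with 48.7 to 56.2 FPKM in WLZ1 and 55.4 to 56.8 FPKM in N2. Excretory markers summed to 71.2 to 79.97 FPKM in WLZ1 and 95.03 to 100.02 FPKM in N2.

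Genes of the somatic reproductive tract were counted next. In the vulva list 9 of 11 fell and none rose (median -0.80, or -0.32 after quantile normalization), and 1 of the 9 was tested only through N2. egl-38, a Pax factor needed for egg laying, had 1.46, 1.15 and 1.81 FPKM in WLZ1 and 5.59, 7.04 and 5.66 FPKM in N2 (log2 change -1.52 ± 0.13 SE, adjusted p = 1.4e-05). lin-11, a LIM homeobox factor, had 2.87, 2.12 and 2.88 FPKM in WLZ1 and 6.62, 7.08 and 6.83 FPKM in N2 (log2 change -1.12 ± 0.11 SE, adjusted p = 2.6e-05), and cog-1 changed by -0.996, with opposite-strand overlap. The ligand lin-3 and egl-26 were not called. In the somatic gonad 5 of 9 (55.6%) fell, near the share of autosomal genes at 5 to 10 FPKM, where the median member lies, and the median of -0.44 became -0.12 after quantile normalization. ceh-18, the POU factor of sheath cells on X, had 2.48, 2.29 and 2.32 FPKM in WLZ1 and 7.001, 8.32 and 7.01 FPKM in N2 (log2 change -1.32 ± 0.099 SE, adjusted p = 6.8e-06). lim-7, of the same cells, had 5.47, 3.76 and 4.55 FPKM in WLZ1 and 10.2, 13.5 and 10.97 FPKM in N2 (log2 change -1.17 ± 0.13 SE, adjusted p = 5.4e-05), and gon-1, a secreted metalloprotease that shapes the gonad, changed by -0.99. The only rise, inx-8 (0.21), lost its call without WLZ1 library 1 or 2 or N2 library 1 or 2 (0.13 to 0.22).

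Genes of egg formation moved in the opposite direction. In the eggshell and egg activation list 13 of 16 rose and none fell (median 0.41), or 12 of 15 without spe-11, which was tested only through WLZ1. gna-2, which makes a precursor of chitin for the eggshell, had 221, 235.4 and 212 FPKM in WLZ1 and 139, 152 and 143 FPKM in N2 (log2 change 0.62 ± 0.052 SE, adjusted p = 1.2e-05). egg-5, a pseudophosphatase of egg activation, had 82.2, 83.3 and 78.8 FPKM in WLZ1 and 56.4, 58.1 and 55.6 FPKM in N2 (log2 change 0.51 ± 0.045 SE, adjusted p = 1.4e-05). spe-11, a paternal factor carried by sperm, had 8.56, 8.02 and 6.38 FPKM in WLZ1 and 0.940, 0.370 and 0.561 FPKM in N2 (log2 change 2.42 ± 0.39 SE, adjusted p = 4.7e-04). The strains did not overlap for these 3. perm-2, perm-4 and mbk-2 were not called. Gap junction genes were looked up after their values were seen. inx-14 and inx-22 are known from germ cells and oocytes. inx-14 had 111, 116 and 112 FPKM in WLZ1 and 82.9, 77.5 and 81.1 FPKM in N2 (log2 change 0.48 ± 0.042 SE, adjusted p = 1.4e-05), with opposite-strand overlap, and inx-22 had 73.7, 71.5 and 79.6 FPKM in WLZ1 and 56.1, 55.6 and 52.1 FPKM in N2 (log2 change 0.45 ± 0.053 SE, adjusted p = 7.3e-05). In the innexin family as a whole 4 of 21 rose and 13 fell (2 of them tested only through N2), the largest being inx-6 (-2.39), known from the pharynx, and inx-1 on X (-2.08). unc-9, an innexin of neurons and muscle on X, had 1.98, 2.05 and 2.47 FPKM in WLZ1 and 9.77, 13.1 and 12.8 FPKM in N2 (log2 change -2.02 ± 0.12 SE, adjusted p = 2.8e-06). unc-1, a stomatin-like partner of it and also on X, had 4.72, 4.09 and 4.66 FPKM in WLZ1 and 21.6, 28.9 and 25.7 FPKM in N2 (log2 change -2.26 ± 0.11 SE, adjusted p = 1.1e-06).

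Genes of cell division and of the nucleus rose by small amounts. In the kinetochore, spindle and centrosome list 33 of 36 genes rose and none fell, with a median of 0.28 (0.40 relative to all genes). mei-2, a subunit of the meiotic microtubule-severing katanin, had 268, 244 and 258 FPKM in WLZ1 and 170.1, 193 and 186 FPKM in N2 (log2 change 0.49 ± 0.073 SE, adjusted p = 3.2e-04). tac-1, a centrosomal TACC protein, changed by 0.41 ± 0.066 SE, adjusted p = 5.2e-04, and tpxl-1, the Aurora A activator, by 0.43, with opposite-strand overlap. Of 26 nuclear pore genes 24 rose (median 0.23), npp-23 by 0.38 and npp-19 by 0.35. Of 25 genes for DNA damage and apoptosis 19 rose (median 0.24). rad-51, the recombinase, had 78.1, 87.5 and 81.4 FPKM in WLZ1 and 58.02, 59.01 and 58.8 FPKM in N2 (log2 change 0.48 ± 0.046 SE, adjusted p = 2.2e-05). msh-2, for mismatch repair, changed by 0.44 and ced-3, the cell death caspase, by 0.36. Of 35 splicing genes 21 rose (median 0.15), among them snr-1 (0.50) and rsp-6 (0.45). None of these 4 lists had a falling member or a member on X, and all 4 medians stayed above 0 under each scaling. After median-of-ratios scaling they were 0.47, 0.42, 0.42 and 0.34 in the order given. Members typically lay at 30 to 100 FPKM, where 54.1% of autosomal genes rose, so the splicing list (60.0%) lay close to that share.

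Sex determination and dosage compensation genes were also counted. Of 20 tested, 9 rose and 3 fell. her-1, the secreted signal for male fate (chromosome V, 9697015 to 9702035), had 4.13, 2.65 and 3.97 FPKM in WLZ1 and 0.861, 1.19 and 0.936 FPKM in N2 (log2 change 1.19 ± 0.15 SE, adjusted p = 9.7e-05). dpy-27, a condensin subunit that lowers X transcription in hermaphrodites, had 20.8, 17.9 and 18.9 FPKM in WLZ1 and 23.9, 28.5 and 27.3 FPKM in N2 (log2 change -0.45 ± 0.089 SE, adjusted p = 0.0015). dpy-21, a demethylase of the same complex named after its values were seen, had 18.9, 17.1 and 18.3 FPKM in WLZ1 and 21.6, 25.8 and 24.5 FPKM in N2 (log2 change -0.39 ± 0.075 SE, adjusted p = 0.0015). gld-1, an RNA-binding regulator of the germ line, had 658, 629 and 677 FPKM in WLZ1 and 508, 448 and 454 FPKM in N2 (log2 change 0.48 ± 0.059 SE, adjusted p = 9.6e-05). The 11 male body markers were scarce in both strains, with sums of 5.96 to 8.30 FPKM in WLZ1 and 3.52 to 4.23 FPKM in N2, and 6 of them were below 1 FPKM in every library. Factors first read in the embryo gave 4 rises (20%) and 8 falls (40%) among 20, against 27.4% and 41.9% of all genes. Their median was 0.002, or 0.18 after median-of-ratios scaling and 0.16 after quantile normalization. The 10 zygotic embryo markers summed to 23.1 to 26.3 FPKM in WLZ1 and 17.8 to 21.1 FPKM in N2. Of the 7 of them tested, 3 rose and none fell. pha-4, the pharynx selector, had 16.9, 11.8 and 15.4 FPKM in WLZ1 and 25.7, 32.8 and 30.3 FPKM in N2 (log2 change -0.97 ± 0.13 SE, adjusted p = 1.4e-04), and pes-10, an early embryonic transcript, had 5.56, 4.12 and 4.36 FPKM in WLZ1 and 2.74, 2.80 and 3.08 FPKM in N2 (log2 change 0.55 ± 0.13 SE, adjusted p = 0.0046).

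Translation genes were divided by compartment. Of 34 aminoacyl-tRNA synthetase genes 23 rose and none fell, with a median of 0.21 that stayed positive under each scaling (0.39 after median-of-ratios scaling). The share of 67.6% compares with 54.1% of autosomal genes at 30 to 100 FPKM, the level of its median member. pars-2, the mitochondrial prolyl enzyme, changed by 0.39, kars-1, the lysyl enzyme, by 0.38 and nars-1, the asparaginyl enzyme, by 0.38. Of 37 initiation and elongation factor genes 23 rose, all on autosomes, and the 3 that fell were the 3 on X, eef-1A.2 (-0.57), ife-4 (-0.51) and ife-2 (-0.22). The ife-2 call was lost after median-of-ratios scaling at -0.03. ife-3, the eIF4E form essential in the germ line, changed by 0.62, with opposite-strand overlap. Of 71 mitochondrial ribosomal protein genes 23 rose and 1 fell (median 0.11, or 0.30 after median-of-ratios scaling and 0.06 after quantile normalization), a share of rises (32.4%) below that of autosomal genes of like level. Of 75 cytosolic ribosomal protein genes 2 rose, 10 fell and 63 were not called, with a median of -0.08 that became 0.11 after median-of-ratios scaling. The 3 abundant genes nearest to no change were rplp-0 at 0.0004, rps-6 at 0.001 and rps-13 at -0.0012, and after median-of-ratios scaling they stood at 0.20, 0.20 and 0.19 with calls.

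Lists of energy and lipid metabolism had no common direction. Glycolysis had 5 rises and 5 falls among 18 (median -0.03, positive under both other scalings), with gpd-1 and gpd-4 among the rises and aldo-1, gpd-2 and gpd-3 among the falls. The tricarboxylic acid cycle had 8 rises and 4 falls among 25 (median -0.05, 0.14 after median-of-ratios scaling), and 3 of the 4 falls were on X. icl-1, the glyoxylate cycle enzyme on V, had 167, 192 and 159 FPKM in WLZ1 and 231, 302 and 311 FPKM in N2 (log2 change -0.69 ± 0.12 SE, adjusted p = 7.4e-04), and sucg-1, a succinyl-CoA ligase subunit gene, had 109, 127 and 104 FPKM in WLZ1 and 81.6, 69.4 and 73.5 FPKM in N2 (log2 change 0.59 ± 0.081 SE, adjusted p = 1.8e-04). Nuclear genes of the respiratory chain gave 3 rises and 8 falls among 35, of which 5 falls were among the 6 X members. Their median of -0.06 turned to 0.13 after median-of-ratios scaling.

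In fatty acid synthesis the elongases parted. elo-6, for branched-chain and long fatty acids, had 689, 676 and 647 FPKM in WLZ1 and 483, 428 and 455 FPKM in N2 (log2 change 0.56 ± 0.098 SE, adjusted p = 7.6e-04). elo-5 and elo-2, named after their values were seen, changed by 0.56 and 0.49, elo-5 with opposite-strand overlap. elo-4 fell by 1.41, with opposite-strand overlap, and fat-7, a delta-9 desaturase, had 16.1, 13.1 and 12.7 FPKM in WLZ1 and 30, 26.1 and 24.9 FPKM in N2 (log2 change -0.90 ± 0.12 SE, adjusted p = 1.9e-04). Lipid storage and breakdown gave 5 rises and 11 falls among 24 (median -0.31, or -0.12 after median-of-ratios scaling). ech-1.1, an enoyl-CoA hydratase of beta-oxidation, had 4.41, 2.46 and 2.76 FPKM in WLZ1 and 13.5, 13.3 and 14.7 FPKM in N2 (log2 change -1.84 ± 0.18 SE, adjusted p = 2.4e-05), and hacd-1, a hydroxyacyl-CoA dehydrogenase, had 284, 298 and 240.2 FPKM in WLZ1 and 211, 165 and 196 FPKM in N2 (log2 change 0.52 ± 0.11 SE, adjusted p = 0.0018). Peroxisome assembly gave 2 rises and 7 falls among 11, with a median of -0.31 that turned to 0.08 after quantile normalization. One-carbon genes gave 1 rise, mel-32 (0.31), and 6 falls among 15, and their median of -0.17 became 0.03 after median-of-ratios scaling. In the intestine list 10 of 16 fell and none rose (median -0.41, or -0.22 after median-of-ratios scaling), led by the terminal web genes ifb-2 (-1.64) and ifo-1 (-1.41). Dauer genes gave 6 falls (60%) and 1 rise among 10 (median -0.68, or -0.20 after quantile normalization). That share of falls was near the 62.6% of autosomal genes at 5 to 10 FPKM, where the median member lies. Trehalose synthase tps-2 stood at -1.11, and lea-1 was the rise at 0.22 with opposite-strand overlap. The 7 dauer markers summed to 185.1 to 196.6 FPKM in WLZ1 and 170.4 to 194.7 FPKM in N2, which overlap. Most of these sums came from lea-1, with 162.0 to 177.0 FPKM in WLZ1 and 140.2 to 152.3 FPKM in N2.

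Gene families by shared name prefix, 78 with at least 15 tested members, showed how evenly some groups moved. In 14 families nothing rose and in 5 nothing fell. All 17 dbd genes fell (median -1.93), dbd-8 with 2.51, 2.09 and 3.31 FPKM in WLZ1 and 26.03, 28.7 and 25.4 FPKM in N2 (log2 change -2.94 ± 0.14 SE, adjusted p = 1.1e-06). All 25 glb genes, which encode globins, fell (median -0.91), and 25 of 26 lgc genes of ligand-gated channels (median -0.96), with lgc-21 on X at -2.19. Of 23 cutl genes, cuticlin-like, 22 fell (median -1.19), and of 30 twk potassium channel genes 24 fell (median -0.77). twk-11 had 0.901, 0.542 and 0.760 FPKM in WLZ1 and 4.33, 6.38 and 6.58 FPKM in N2 (log2 change -1.95 ± 0.15 SE, adjusted p = 7.7e-06). Of 22 patched-related ptr genes 20 fell and 1 rose, with ptr-18 at -2.60. Of 16 hlh factors 15 fell. All these medians were below 0 under each scaling. After quantile normalization those of glb, cutl, twk, ptr and hlh genes were -0.55, -0.74, -0.31, -0.42 and -0.27. Genes tested only through N2, which had to be lower, were 5 of the 17 dbd, 11 of the 25 glb, 13 of the 26 lgc, 10 of the 23 cutl, 9 of the 30 twk, 5 of the 22 ptr and 5 of the 16 hlh genes. Without them 12 of 12 dbd, 14 of 14 glb, 12 of 13 lgc, 12 of 13 cutl, 15 of 21 twk, 15 of 17 ptr and 10 of 11 hlh genes fell.

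Nuclear hormone receptors, the largest family of transcription factors in the worm, gave 137 falls and 3 rises among 164 (median -0.60, or -0.14 after quantile normalization). Without the 12 tested only through N2 there were 125 falls and 3 rises among 152 (82.2% lower). nhr-91 on X had 4.84, 3.01 and 4.32 FPKM in WLZ1 and 11.07, 18.1 and 16.5 FPKM in N2 (log2 change -1.67 ± 0.18 SE, adjusted p = 4.8e-05). nhr-41 had 3.76, 3.74 and 3.38 FPKM in WLZ1 and 11.13, 14.8 and 15.4 FPKM in N2 (log2 change -1.66 ± 0.14 SE, adjusted p = 1.0e-05). Of the 3 rises, seen after the values, nhr-2, an early embryonic receptor, changed by 0.36, and nhr-66 and nhr-181 by 0.14 and 0.24; nhr-181 lost its call without WLZ1 library 1 or 3 or any N2 library (0.18 to 0.25), and nhr-66, with opposite-strand overlap, without WLZ1 library 1 or 3 or N2 library 2 (0.11 to 0.15). Of 92 unc genes, named for uncoordinated movement of mutants, 74 fell and 5 rose, and 12 of the 74 were tested only through N2. The 5, also picked out afterwards, were the septins unc-59 (0.29) and unc-61 (0.26, opposite-strand overlap), the histone chaperone unc-85 (0.35), the clathrin adaptor unc-101 (0.29) and the endophilin unc-57 (0.17).

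Other families had more rises than falls. Of 35 bath genes, with BTB and MATH domains that pair with Cullin ubiquitin ligases, 23 (65.7%) rose and 3 fell (median 0.32, or 0.63 after quantile normalization), against 24.7% rises among autosomal genes at 10 to 30 FPKM, where the median member lies. bath-13 had 8.18, 7.86 and 7.94 FPKM in WLZ1 and 1.66, 1.40 and 1.16 FPKM in N2 (log2 change 1.91 ± 0.12 SE, adjusted p = 2.6e-06). The rises among 20 mdt genes of the Mediator complex (11), 17 taf genes (7, 41.2%) and 33 vps genes of vacuolar sorting (17, 51.5%) were near or below the 54.1% of autosomal genes at 30 to 100 FPKM, their level. Of 15 cdc genes 11 (73.3%) rose, and the 1 that fell was cdc-50.B (-0.72), whose call was lost after quantile normalization at -0.15. Proton pump genes ran the other way, with 16 of 20 vha genes lower (median -0.31, or -0.11 after median-of-ratios scaling), among them vha-3 at -0.91.

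Worm relatives of Parkinson disease genes did not move as a block. Of 14 tested, 5 rose, 5 fell and 4 were not called. Their median was 0.10, or 0.29 after median-of-ratios scaling and 0.19 after quantile normalization. lrk-1, the relative of LRRK2, had 5.60, 5.67 and 5.20 FPKM in WLZ1 and 7.10, 8.03 and 7.59 FPKM in N2 (log2 change -0.40 ± 0.078 SE, adjusted p = 0.0014), and turned to 0.18 without a call after quantile normalization; it shares exon sequence with T27C10.8 on the opposite strand. Of the relatives of Rab substrates of LRRK2, rab-8 and rab-10 rose by small amounts. rab-8 had 130.2, 125 and 119.7 FPKM in WLZ1 and 86.8, 106 and 101.4 FPKM in N2 (log2 change 0.35 ± 0.069 SE, adjusted p = 0.0015). rab-10 had 473, 467 and 424 FPKM in WLZ1 and 354, 393 and 412 FPKM in N2 (log2 change 0.24 ± 0.066 SE, adjusted p = 0.0099). rab-35 was not called (0.076, adjusted p = 0.31).

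vps-35, the retromer subunit, had 55.9, 55.4 and 57.4 FPKM in WLZ1 and 50.2, 45.5 and 46.6 FPKM in N2 (log2 change 0.24 ± 0.052 SE, adjusted p = 0.0023), and djr-1.1, a DJ-1 relative, changed by 0.27 ± 0.055 SE, adjusted p = 0.0019. The glucocerebrosidase relatives parted. gba-2 had 3.68, 3.55 and 2.86 FPKM in WLZ1 and 1.83, 2.48 and 2.09 FPKM in N2 (log2 change 0.48 ± 0.12 SE, adjusted p = 0.0067), whereas gba-1 had 15.2, 18.4 and 13.6 FPKM in WLZ1 and 25.4, 21.4 and 28.2 FPKM in N2 (log2 change -0.64 ± 0.13 SE, adjusted p = 0.0015), and these 2 overlap on opposite strands. gba-3 changed by -0.54 with its call lost at -0.04 after quantile normalization, and gba-4 by -0.68 with overlapping strains and a call lost without WLZ1 library 1 or 3 or N2 library 1 or 3 (-0.51 to -0.62). glo-1, a Rab of gut granules on X, changed by -0.28, lost its call without WLZ1 library 1 or 3 or N2 library 3 (-0.24 to -0.27) and turned to 0.30 after quantile normalization. pink-1 (0.11), pdr-1, the parkin relative (0.092), and catp-6 (0.14) were not called on the deposited scale.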

How the data were processed

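The authors deposited 1 table of FPKM values (read counts scaled by gene length and library size) for 28749 genes. The submitters' processing notes name WBcel235 as the build and fastp (0.23.2), HISAT2 (2.2.1) and featureCounts (2.0.3) as tools, and no source used here says how FPKM was derived. Columns were matched to samples by name. Gene positions are those of RefSeq for this build, where 28744 genes were found. Exon lengths and overlaps came from Ensembl release 115, and FPKM times exon length gave the read totals.

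A gene was tested if 3 or more of the 6 libraries reached 1 FPKM. The test was limma 3.58.1 (R 4.3.3) on log2(FPKM + 1) with a trended variance, and all 9 libraries of the series shared the fit, with 1 mean per strain. The contrast was WLZ1 minus N2. Two-sided p-values were adjusted over all 14367 genes by the Benjamini-Hochberg method, and a gene was called below 0.05. On this scale the change of a gene near 0 is compressed. The script was tested on simulated data. Tables were handled in Python 3.11.15 (pandas 2.3.3, numpy 2.4.6, matplotlib 3.10.9).

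The named genes are the parts of the transgene and lrk-1, the 12 largest called rises and 12 largest falls that reach 5 FPKM in the higher strain with no overlap, up to 3 called members of each list with the largest change and 1 against the majority, the 2 largest called changes of each family, and the 3 abundant genes nearest to no change. For any other gene the text states that it was picked with its values in view, and all tested Parkinson relatives are given. The members and lists were chosen with earlier results of these data known. A list is described by its counts and median beside those of all genes, with no test of the list. The settings varied were the pseudocount (0.1 and 0.5), the filter (none, or a mean level of 5 FPKM), a fit to 6 libraries, median-of-ratios scaling, quantile normalization, rescaling to equal sums, a replicate block and leaving out each library.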

Additional observations from a re-analysis of the deposited data

Results flagged for a closer look

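T10H9.10, which was 0 in the 3 N2 libraries and 30.9 to 35.6 FPKM in the WLZ1 libraries, averaged 43.2 FPKM in the 3 libraries of WLZ3, whose snb-1-driven LRRK2 has the G2019S change. It is given here because those libraries are outside the comparison and the level in N2 was 0. The gene lies on chromosome V at 6659021 to 6659161, beside snb-1, whose promoter both transgenes use. A count of 6 reads, taken as the limit for a value of 0, is worth 0.863 to 1.12 FPKM for this gene in the N2 libraries, and covers counting error only.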

How the results depend on the processing

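The counts of 3936 higher and 6015 lower genes stayed within 1.5 times under every alternative, except that a filter at a mean of 5 FPKM gave 3214 higher and 3299 lower among 9528 genes, fewer being tested. Median-of-ratios scaling gave 5845 and 4955, quantile normalization 5259 and 4065, and leaving out each library 2962 to 3846 and 4567 to 5825. With 1 library left out the filter still asked for 1 FPKM in 3 libraries, so 13230 to 13760 genes were tested. Genes tested only through N2 dropped out when an N2 library was left out, and likewise for WLZ1. Same-numbered libraries of the strains did not deviate together (correlations of -0.167, -0.165 and -0.103), so the numbers do not pair samples; a replicate block gave 3698 higher and 5843 lower. Of 355 named genes, 52 changed their call or direction under some setting, 36 lost a call and 9 reversed. After quantile normalization lrk-1 stood at 0.18, cbs-1 at 0.071, prx-6 at 0.078, vps-45 at 0.080, sdc-2 at 0.23 and glo-1 at 0.30. After median-of-ratios scaling unc-50 stood at 0.16, ucr-2.2 at 0.00035 and rps-13 at 0.19. The cause was not tested. FPKM removes depth from the values, and genes of a few FPKM, such as most neural ones, carry the widest relative counting error.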

Other observations

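Classes of transcript were also counted by the type the RefSeq table gives them. Of 376 pseudogenes tested, 113 (30.1%) rose and 77 (20.5%) fell in WLZ1, with a median of 0.10, against 3800 (28.1%) and 5806 (42.9%) of 13527 protein-coding genes, with a median of -0.12. After median-of-ratios scaling these medians were 0.24 and 0.05, and after quantile normalization 0.52 and 0.07. Pseudogenes can share reads with their parent genes. Of 46 lncRNA genes 4 rose and 21 fell, with a median of -0.34 that turned to 0.09 after quantile normalization. Of 30 snoRNA genes none rose and 10 fell, with summed levels of 74.9 to 105.5 FPKM in WLZ1 and 150.0 to 201 FPKM in N2. Such RNAs mostly lack a poly(A) tail, and their levels in polyA libraries need not follow their levels in the worm.

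Genes with exons of 20 to 804 bases in all had a median of -0.21 with 41.1% falls, and genes with 2009 bases or more a median of -0.093 with 44.3% falls. After median-of-ratios scaling these medians were -0.039 and 0.092, and after quantile normalization -0.008 and 0.075. Ribosomal RNA took 0.160% to 0.374% of summed FPKM in WLZ1 libraries and 0.179% to 0.354% in N2 libraries. The 10 most abundant genes held 4.85% to 5.33% in WLZ1 and 5.11% to 5.34% in N2.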
